A study of Homo sapiens with 4 samples.

Results

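The genes described here were 10 of the 20809 targets of an AmpliSeq transcriptome panel: 3 tissue inhibitors of metalloproteinases (TIMP1, TIMP2 and TIMP3), the membrane-anchored inhibitor RECK, and 6 zinc proteases (MMP7, MMP14, MMP15, ADAM10, ADAM17 and ADAMTS1). They were chosen by gene symbol, for their place in the control of proteolysis at and around the cell surface, and the choice was made with earlier results of these data known. The rule itself uses the symbols alone. They were measured in MDA-MB-468, a triple-negative breast cancer cell line of basal type, as 2 libraries of the drug-resistant derivative (MDA-MB-468/R) and 2 of the parental line (MDA-MB-468/WT). MDA-MB-468/R had been treated with adriamycin, taxotere and cytoxan for 6 months, and MDA-MB-468/WT is labelled as untreated and wild-type, although a protocol note shared by all 4 libraries names the drugs. The study's methods describe a recovery period after the treatment, and whether drug was present at harvest is not given in the labels. Both are human mammary gland cancer cells grown alike according to the labels, and no engineered allele is given for either. The comparison is of 1 resistant derivative with its parent. Nothing in the labels says that replicates came from separate cultures, so each p-value is relative to a spread among libraries that may be technical only. The derivative is called the resistant line below, and its parent the parental line.

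Metalloproteinases of these families cut matrix proteins and the outer parts of membrane proteins with the help of a zinc ion in the active site, and most are made as inactive precursors. TIMPs block the active site by wedging into it. TIMP1 and TIMP2 are soluble, whereas TIMP3 is held in the matrix by sulphated sugars and also blocks ADAM17 and several ADAMTS enzymes. RECK is anchored in the plasma membrane and restrains several matrix metalloproteinases. In epithelial tumours the balance of these proteins is best known for its part in invasion and in the release of growth factors from the cell surface.

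Values are RPM, each library's reads scaled to a total of 1000000, each from a single amplicon per gene in libraries of 6844097 to 7977974 reads. Because amplicons differ in how well they amplify, a level is compared between libraries of the same gene. Sums over marker genes are the exception, and the share of a gene in such a sum depends on its amplicon as well. All 10 genes had at least 20 reads in every library and were among the 12118 genes tested with limma. A gene is said to have risen or fallen where its Benjamini-Hochberg adjusted p over all genes tested was at most 0.05. Log2 fold changes are the resistant minus the parental line on the log2(RPM + 1) scale, which understates changes of low genes. Reads come from whole cultures, so fewer cells that express a gene and less RNA per cell cannot be told apart.

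Of the 10 genes, TIMP3 and ADAMTS1 rose in the resistant line, TIMP2 and MMP7 fell, and TIMP1, RECK, MMP14, MMP15, ADAM10 and ADAM17 did not pass the test. Over all genes tested, 5.36% rose and 10.6% fell, so calls in either direction were common in this comparison. All 4 called genes also differed by at least 2.5-fold on the fitted scale, a size that 0.809% of the genes tested reached among those that rose and 2.45% among those that fell. For 2 of the 10 genes each resistant library exceeded each parental one, and for 3 each was lower, against 26.1% and 32.2% of all genes tested. The median log2 fold change was -0.12 over the 10 genes and -0.03 over all genes tested.

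**Figure D1:**
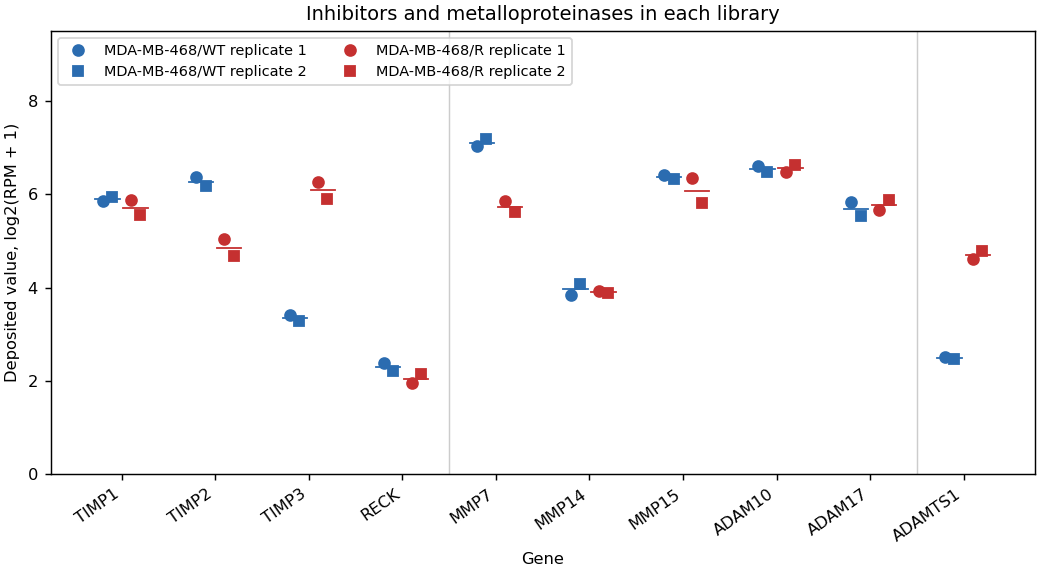
Deposited log2(RPM + 1) value (vertical axis) of each of the 10 genes (horizontal axis) in each library; blue points are the parental line, red points the resistant line, circles replicate 1 and squares replicate 2, and short lines mark the group means. The red points of TIMP3 and ADAMTS1 stand above the blue points, those of TIMP2, MMP7 and RECK stand below them, and the groups overlap for the other 5 genes.

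TIMP3 was the gene of this set with the largest difference. It was at 75.6 and 59.1 RPM in resistant replicates 1 and 2, and at 9.63 and 8.78 RPM in parental replicates 1 and 2. Both resistant libraries were far above both parental libraries, and the parental libraries lay close together. The mean was 67.4 ± 11.7 RPM (SD, n = 2) in the resistant line and 9.21 ± 0.60 RPM (SD, n = 2) in the parental line, a ratio of 7.32. The log2 fold change was 2.74 (SE 0.166, 95% interval 2.35 to 3.12, limma adjusted p = 0.000137), the rank 7 among all increases. These values rest on 530 and 433 reads in the resistant line against 66 and 70 in the parental line. TIMP3 and ADAMTS1 are among the genes that the study displays as increased in this resistant line, so their direction here is not independent evidence.

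TIMP2, which inhibits secreted and membrane-bound matrix metalloproteinases and also takes part in the activation of pro-MMP2 on MMP14, went the opposite way. It was at 31.9 and 24.5 RPM in the resistant line and at 81.7 and 71.5 RPM in the parental line. Neither resistant library reached the lower of the parental libraries. The means were 28.2 ± 5.26 RPM and 76.6 ± 7.22 RPM (SD, n = 2 each), with the parental line higher by a ratio of 2.72. The log2 fold change was -1.42 (SE 0.16, 95% interval -1.79 to -1.05, limma adjusted p = 0.00155). Without parental replicate 1 the log2 fold change was -1.32 and the adjusted p was 0.051, so the call was lost.

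TIMP1, a secreted inhibitor that binds pro-MMP9 among others, was at 57.5 and 46.2 RPM in the resistant line and at 56.7 and 60.4 RPM in the parental line. The groups overlapped, since resistant replicate 1 lay between the parental libraries. The log2 fold change of TIMP1 was -0.18 (SE 0.141, limma adjusted p = 0.436), and its 95% interval ran from a fold of 0.702 to 1.11. RECK had 20 and 25 reads in the resistant line and 29 in each parental library. Both resistant libraries, at 2.86 and 3.41 RPM, were below both parental libraries, at 4.24 and 3.63 RPM. The difference did not pass the test (log2 fold change -0.26, SE 0.213, limma adjusted p = 0.465), and at this depth a fold from 0.593 to 1.18 stays within the interval. The remaining family member, TIMP4, had at most 3 reads in any library and was not tested.

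The shift of TIMP3 against the other TIMPs was also taken within each library. The log2 value of TIMP3 minus that of TIMP2 was 1.22 and 1.24 in resistant replicates 1 and 2, and -2.96 and -2.89 in parental replicates 1 and 2. TIMP3 minus TIMP1 was 0.39 and 0.35 in the resistant line and -2.44 and -2.65 in the parental line. Each such difference carries a constant for the pair of amplicons that cancels only between libraries, so the shift between groups can be read and the sign within a library cannot. For TIMP2 and MMP7, which fell together, the difference was -0.81 and -0.95 in the resistant line and -0.67 and -1.0 in the parental line, with the groups overlapping.

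MMP7, or matrilysin, is a small secreted protease made by glandular epithelial and carcinoma cells. It was at 56.7 and 48.2 RPM in the resistant line and at 131 and 144 RPM in the parental line. Both resistant libraries lay well below both parental ones. Means were 52.4 ± 6.01 RPM and 137 ± 9.48 RPM (SD, n = 2 each), higher in the parental line by a ratio of 2.62. The log2 fold change was -1.38 (SE 0.127, 95% interval -1.67 to -1.08, limma adjusted p = 0.000668). MMP7 and TIMP2 passed the 2.5-fold size narrowly, at 2.59-fold and 2.68-fold on the fitted scale. When each library was left out in turn, the log2 fold change ran from -1.49 to -1.26 for MMP7 and from -1.60 to -1.24 for TIMP2. MMP7 was under that size without resistant replicate 2 (-1.26) or parental replicate 2 (-1.30), and TIMP2 without resistant replicate 2 (-1.24), with TIMP2 at the limit without parental replicate 1.

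The promoter sequences of TIMP3 and MMP7 are shown because these genes moved in opposite directions and their upstream regions are built differently. RefSeq promoter entries matched 8 of the 10 genes, all except TIMP2 and ADAMTS1. Each sequence is the 250 bases before the gene's start, 5′ to 3′ on the gene's own strand, in build GRCh38.p14. TIMP3 lies at chr22:32801455-32801704 on the plus strand, and MMP7 at chr11:102530748-102530997 on the minus strand. Capitals mark matches on either strand to the GC box GGGCGG, the AP-1 consensus TGANTCA and the TATA box TATAAA.
TIMP3: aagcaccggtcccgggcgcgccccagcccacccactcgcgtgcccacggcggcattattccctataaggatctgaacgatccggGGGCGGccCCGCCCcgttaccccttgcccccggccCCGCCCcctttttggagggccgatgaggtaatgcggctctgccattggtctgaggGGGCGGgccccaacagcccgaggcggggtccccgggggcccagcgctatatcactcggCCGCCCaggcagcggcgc
MMP7: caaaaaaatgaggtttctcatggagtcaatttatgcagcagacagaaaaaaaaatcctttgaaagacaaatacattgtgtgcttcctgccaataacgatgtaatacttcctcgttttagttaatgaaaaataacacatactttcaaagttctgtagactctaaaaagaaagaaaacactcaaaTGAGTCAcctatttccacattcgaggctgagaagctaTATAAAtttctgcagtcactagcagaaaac
The TIMP3 sequence held 5 GC boxes, 26 CpG dinucleotides and 72.4% G and C, with no match to the AP-1 consensus or the TATA box. The MMP7 sequence held 1 AP-1 consensus with its first base 67 bases before the start, 1 TATA box 30 bases before the start, 3 CpG dinucleotides and 33.6% G and C. Among 35116 promoter sequences of this length, 42.6% held the GC box, 6.57% the AP-1 consensus and 10.7% the TATA box, and the medians were 11 CpG dinucleotides and 58.0% G and C. None of the marked motifs overlapped another. The other 6 genes with an entry were TIMP1, MMP14, MMP15, ADAM10, ADAM17 and RECK. None of these held either the AP-1 consensus or the TATA box in this window, and all held at least 1 GC box. MMP15 held 5 GC boxes, 31 CpG dinucleotides and 74.8% G and C, and ADAM17 held 3, 31 and 75.6%. Neither gene passed the test, so the composition of the TIMP3 sequence was not particular to a gene that rose. Whether promoter composition goes with direction was not tested. A match is a string of letters, and binding at these sites was not measured.

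The membrane-type matrix metalloproteinases did not pass the test. MMP14, which activates pro-MMP2 and cuts collagen at the cell surface, was at 14.1 and 13.8 RPM in the resistant line and at 13.4 and 15.8 RPM in the parental line. The resistant libraries lay inside the parental range, and the 95% interval of the difference ran from a fold of 0.736 to 1.26 (log2 fold change -0.06, SE 0.166, limma adjusted p = 0.857). MMP15, a further membrane-type enzyme, was at 80.6 and 55.1 RPM in the resistant line and at 84.0 and 79.4 RPM in the parental line. The resistant replicates of MMP15 stood apart, by 0.54 on the log2 scale, and replicate 1 overlapped the parental libraries. Its log2 fold change was -0.29 (SE 0.178, limma adjusted p = 0.313), with a fold of 0.613 to 1.09 inside the interval. Without resistant replicate 1 it passed the test, at a log2 fold change of -0.56 and an adjusted p of 0.039, whereas without resistant replicate 2 the log2 fold change was -0.02 and the adjusted p was 0.833.

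Together with MMP14, the sheddases ADAM10 and ADAM17 had the log2 fold changes nearest to 0 among the 10 genes. ADAM10, which releases the outer parts of Notch receptors, cadherins and many other membrane proteins, was at 88.9 and 97.4 RPM in the resistant line and at 96.7 and 88.3 RPM in the parental line. Means were 93.1 ± 5.99 RPM and 92.5 ± 5.95 RPM (SD, n = 2 each), and the groups overlapped almost fully. The interval of the difference ran from a fold of 0.836 to 1.21 (log2 fold change 0.01, SE 0.115, limma adjusted p = 0.965). ADAM17, which releases tumour necrosis factor and ligands of the EGF receptor, was at 49.6 and 57.5 RPM in the resistant line and at 56.3 and 45.5 RPM in the parental line. Here too the libraries were interleaved. The interval for ADAM17 ran from a fold of 0.827 to 1.34 (log2 fold change 0.08, SE 0.149, limma adjusted p = 0.778).

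ADAMTS1, a secreted protease that cuts the proteoglycans versican and aggrecan, rose. It was at 23.6 and 26.7 RPM in the resistant line and at 4.7 and 4.5 RPM in the parental line. The replicates were close within each group and the groups were widely separated. The means were 25.1 ± 2.17 RPM and 4.60 ± 0.137 RPM (SD, n = 2 each), a ratio of 5.46. The log2 fold change was 2.22 (SE 0.171, 95% interval 1.82 to 2.62, limma adjusted p = 0.000319), the rank 18 among all increases. The reads behind it were 165 and 195 in the resistant line and 32 and 36 in the parental line.

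**Figure D2:**
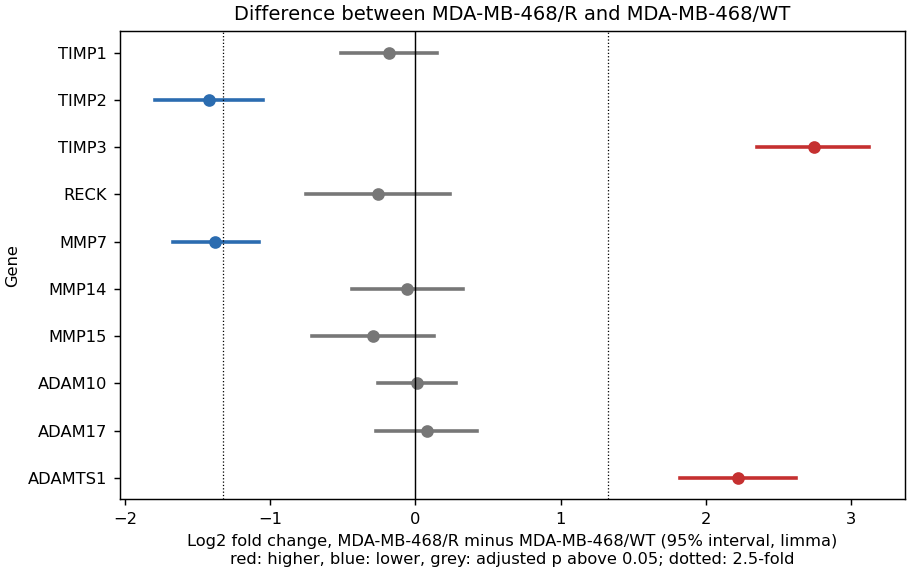
Log2 fold change, MDA-MB-468/R minus MDA-MB-468/WT (horizontal axis), of each of the 10 genes (vertical axis), with points for the limma estimate, bars for its 95% interval and dotted lines at a 2.5-fold difference. The intervals of TIMP3 and ADAMTS1 lie above 0, those of TIMP2 and MMP7 below 0, and the other 6 include 0.

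Among the related genes, the lists of the protease system held 154 further genes on the panel. Of these, 44 had no read in any library and 68 were tested, of which 4 rose and 21 fell. The share of the 68 called in either direction was 36.8%, against 16.0% of all genes tested. Over all genes tested, 5.36% rose and 10.6% fell. The median log2 fold change of the 68 was -0.33, against -0.03 over all genes tested. Genes expressed in a single group pass the filter on low reads only through that group, so these counts describe the lists and are no test of them. They depended on each library and were lowest when a parental replicate was left out. Calls over all genes tested also dropped steeply without either parental replicate, so this loss was not particular to the lists. TFPI2, PLAU, FN1 and LAMB3 kept their calls whichever library was left out. Calls were lost at least once for A2M, MMP20, ADAM9, ADAM15, ADAMTS3, ADAMTS17, ADAMTSL4, BMP1, SDC1, LRP1, KDR, AREG, COL4A2, COL18A1, LAMA3, CD44, CXCL16 and EPHA2. L1CAM, COL4A1, MMP20 and ADAMTSL4 were under the read filter when a parental replicate was left out.

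Among the inhibitors, 6 of 9 measured genes were tested. TFPI2, a Kunitz-type inhibitor of plasmin and other serine proteases that sits in the matrix, fell from 61.1 ± 3.95 RPM in the parental line to 19.7 ± 0.405 RPM in the resistant line (SD, n = 2 each, log2 fold change -1.58, limma adjusted p = 0.000421). A2M, the broad plasma protease trap, rose from 6.55 ± 2.23 to 12.3 ± 0.39 RPM (log2 fold change 0.85, limma adjusted p = 0.0496) and was named after its values were seen. The call of A2M was lost in 7 of 13 alternatives. The inhibitors therefore held 2 genes that rose (TIMP3 and A2M), 2 that fell (TIMP2 and TFPI2) and 2 that did not pass the test.

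Of 16 secreted matrix metalloproteinases, 10 had no read in any library and 3 were tested. MMP20, the enamel protease whose gene lies next to MMP7, had 2 and 4 reads in the resistant line and 16 and 18 in the parental line, and fell (log2 fold change -1.23, limma adjusted p = 0.0151). MMP2, the gelatinase that MMP14 activates, was at 2.02 RPM in the resistant line and 1.34 RPM in the parental line and did not pass the test (adjusted p = 0.313). Of 7 membrane-bound ones, 3 were tested, MMP14, MMP15 and MMP25, and did not pass.

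Among 13 ADAM proteins with a zinc-binding site, 4 were tested. ADAM9 fell from 238 ± 9.37 to 133 RPM (log2 fold change -0.83, limma adjusted p = 0.00193) and ADAM15 from 370 ± 1.82 to 246 ± 36.2 RPM (-0.59, adjusted p = 0.0167), while ADAM10 and ADAM17 did not pass the test. Of 19 ADAMTS genes, 3 had enough reads to be tested. Where 5.36% of all genes tested rose, all 3 of these rose. Beside ADAMTS1 these were ADAMTS3, a procollagen-processing enzyme, at 2.58 against 0.599 RPM (log2 fold change 1.17, limma adjusted p = 0.0174), and ADAMTS17, at 9.78 against 5.41 RPM (0.75, adjusted p = 0.0305). Both were named after their values were seen, and ADAMTS3 rests on 3 and 6 reads in the parental line. It passed the read filter through the resistant line alone, with 19 and 18 reads. The family as a whole was not tested. Among the ADAMTS-like genes, ADAMTSL4 fell, from 13 and 18 to 4 and 4 reads (log2 fold change -0.98, limma adjusted p = 0.0301). ADAMTSL4 passed the read filter through the parental line alone. Its call was lost with the replicate block (limma adjusted p = 0.0526) and without either resistant library. BMP1, an astacin protease that trims procollagens, fell from 39.4 ± 0.989 to 16.7 ± 2.42 RPM (log2 fold change -1.20, limma adjusted p = 0.00285).

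Of 14 tested genes that activate or carry these proteases, PLAU alone passed the test. PLAU, the urokinase that starts the plasmin cascade, fell from 72.3 ± 0.359 to 17.1 ± 0.355 RPM (SD, n = 2 each, log2 fold change -2.02, limma adjusted p = 0.000156). FURIN, the convertase that removes the propeptides of MMP14, ADAM10 and ADAM17, was at 11.1 RPM in the resistant line and 15.5 RPM in the parental line (adjusted p = 0.11). The iRhom gene RHBDF2, needed to bring ADAM17 to the surface, had a log2 fold change of -0.28 (adjusted p = 0.224).

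Of 7 tested uptake receptors and TIMP3-binding proteins, SDC1 rose, LRP1 and KDR fell, and 4 did not pass. LRP1, the endocytic receptor that clears TIMP3 and several proteases, went from 5.77 to 2.95 RPM (log2 fold change -0.78, limma adjusted p = 0.0425). KDR, the VEGF receptor to which TIMP3 binds, went from 6.15 to 3.0 RPM (-0.84, adjusted p = 0.0312). SDC1, a heparan sulphate proteoglycan named here after its values were seen, went from 217 ± 5.33 to 277 ± 5.45 RPM (0.36, adjusted p = 0.0441).

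Of 22 tested surface proteins that ADAM10 or ADAM17 can shed, 5 fell (22.7%) and 17 did not pass the test, where 10.6% of all genes tested fell. AREG, an EGF receptor ligand shed by ADAM17, fell from 9.63 to 2.52 ± 0.121 RPM (log2 fold change -1.60, limma adjusted p = 0.00203). L1CAM, an adhesion molecule, had 3 reads in the resistant line against 328 in the parental line, a ratio of 0.00947 with a 95% counting interval of 0.00194 to 0.0279. CD44, CXCL16 and EPHA2 also fell and were named after their values were seen. Of 11 tested matrix substrates, 7 fell and 4 did not pass the test. The 7 were 63.6% of those tested, where 10.6% of all genes tested fell. COL4A1, with 4 and 2 reads in the resistant line and 22 and 26 in the parental line, passed the read filter through the parental line alone. LAMA3 and COL18A1, named after their values were seen, were among the 7, and each lost its call in 5 of 13 alternatives. The laminin chain LAMB3, fibronectin FN1 and the type IV collagens COL4A1 and COL4A2 had log2 fold changes of -3.45, -2.26, -1.58 and -1.68, with limma adjusted p-values from 0.0000547 to 0.00548. Versican and aggrecan, substrates of ADAMTS1, were not among the genes tested.

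**Figure D3:**
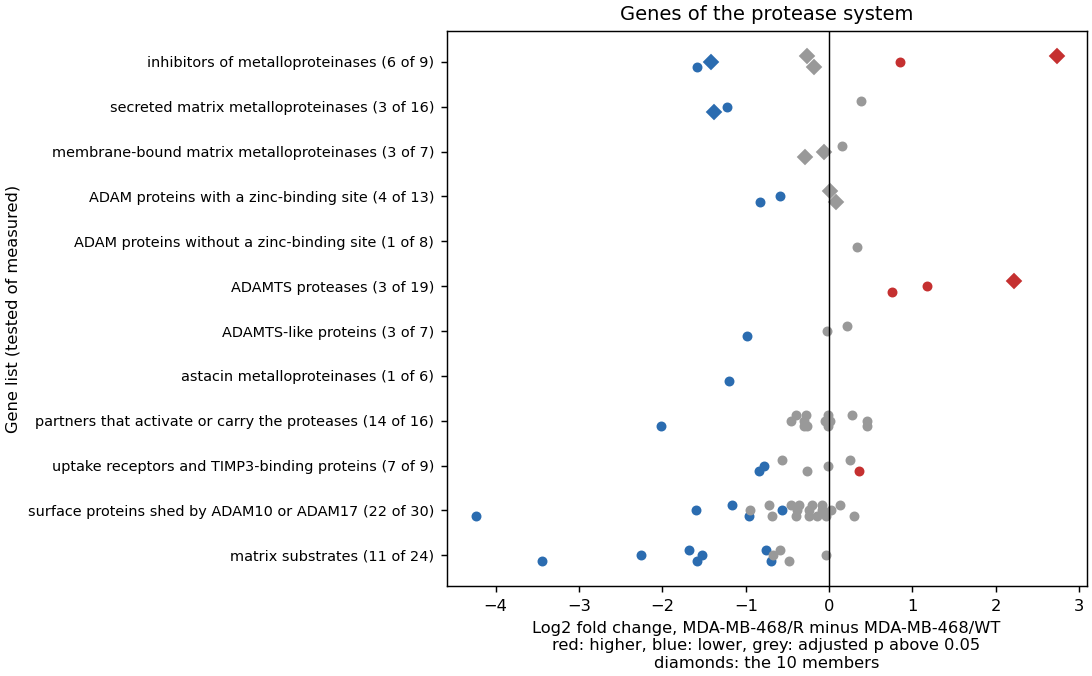
Log2 fold change, MDA-MB-468/R minus MDA-MB-468/WT (horizontal axis), of every tested gene of 12 lists of the protease system (vertical axis, with tested and measured numbers); diamonds are the 10 genes described here, red points rose, blue points fell and grey points did not pass the test. The 3 tested ADAMTS genes are all red, and the 11 tested matrix substrates hold 7 blue and no red points. For comparison, 5.36% of all genes tested rose and 10.6% fell.

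The genes were also placed among those of their own chromosomes, which 11885 of the genes tested could be given. ADAMTS1 lies on chromosome 21, where 3 of 111 tested genes rose (2.70%) and 35 fell (31.5%), with a median log2 fold change of -0.37. Against that background ADAMTS1 had the highest log2 fold change of the 111. CYYR1, its neighbour, also rose, from 3.73 ± 0.717 to 8.92 ± 0.292 RPM (log2 fold change 1.08, limma adjusted p = 0.0130), but not when any 1 library was left out. ADAMTS5, on the other side, had at most 4 reads in any library. TIMP1 lies on chromosome X, where 8 of 380 tested genes rose (2.11%) and 139 fell (36.6%), with a median of -0.45. The TIMP1 value of -0.18 exceeded those of 286 of the other 379.

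TIMP3 had the highest log2 fold change of 302 tested genes on chromosome 22, where 14 rose and 19 fell. SYN3, the synapsin gene that spans TIMP3 on the opposite strand, had at most 4 reads in any library, and LARGE, the neighbour on the other side, had none. Beside TIMP2, USP36 and LGALS3BP had log2 fold changes of -0.05 and -0.31 and did not pass the test. Beside MMP7, TMEM123 had -0.21 and did not pass, while MMP20 fell. Beside ADAM17, IAH1 fell (log2 fold change -0.51, limma adjusted p = 0.0443, a call lost in 7 of 13 alternatives) and YWHAQ had -0.06 (adjusted p = 0.754). The tested neighbours of TIMP1, MMP14, MMP15, ADAM10 and RECK did not pass the test.

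**Figure D4:**
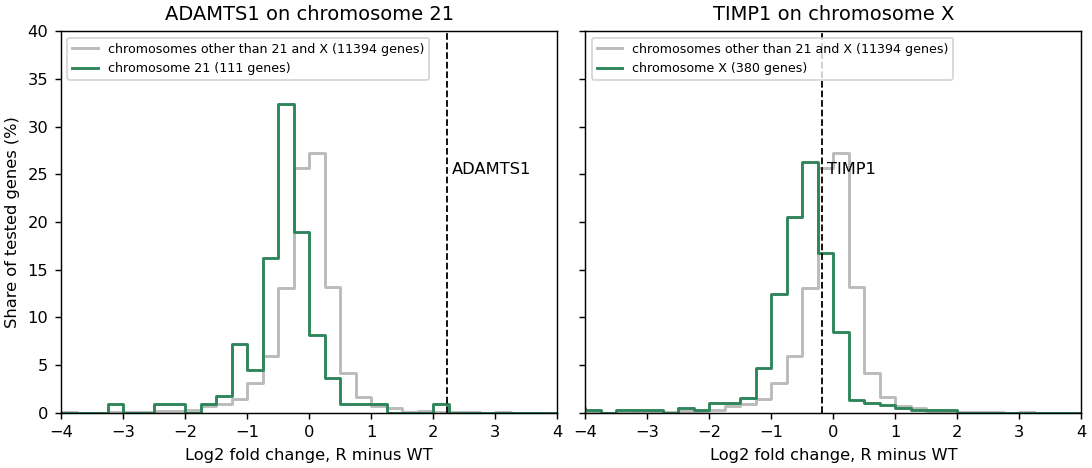
Share of tested genes in percent (vertical axis) by log2 fold change, MDA-MB-468/R minus MDA-MB-468/WT (horizontal axis), for chromosome 21 (left, green) and chromosome X (right, green) against the genes of the other chromosomes (grey), with a dashed line at ADAMTS1 and at TIMP1. Both green curves sit to the left of the grey one, ADAMTS1 lies at 2.22 on the far right, and TIMP1 lies at -0.18.

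By the Euclidean distance between centred log2 values over the 4 libraries, the genes nearest to TIMP3 were IQGAP2 (0.264), FGG (0.277), PPP1R1B (0.303), ZBTB7C (0.348) and BMP5 (0.393). Those nearest to ADAMTS1 were DPP4 (0.064), C4B (0.095), AGR2 (0.19), CREB3L1 (0.293) and ALDH1A1 (0.295). With 2 libraries a group, this likeness reflects mainly the size of the difference between the groups.

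The label of the cells was checked against markers. EGFR, which is amplified in this line, was at 5200 RPM in the resistant line and 5690 RPM in the parental line. KRT5, a basal keratin, was at 675 RPM in the resistant line and 1150 RPM in the parental line, and KRT5, KRT6B, KRT17 and CDH3 fell among 8 basal markers. Since TIMPs and ADAMTS1 are also products of stroma and vessels, other cell types were read in the same libraries. The summed level of 8 fibroblast markers was 17.4 to 18.7 RPM in the resistant line and 19.7 to 20.9 RPM in the parental line, with DCN and PDGFRB at 0 reads in all 4 libraries. The sum of 4 endothelial markers was 3.0 to 3.13 RPM against 8.46 to 9.5 RPM, with VWF at 0. Of these markers KDR and CDH5 fell, with CDH5 at 0 and 1 reads in the resistant line and 18 and 22 in the parental line. The sum of 4 leukocyte markers was 83.0 to 87.2 RPM against 109 to 110 RPM, from CD14 and CD68, with PTPRC and CD3E at 0. The sum of 6 genes typical of MDA-MB-231 was 239 to 250 RPM against 439 to 443 RPM, and VIM, CAV1 and MSN fell. Most of this sum was MSN, at 236 RPM in the resistant line and 357 RPM in the parental line. MSN lies on chromosome X, and its log2 fold change was -0.6, beside a median of -0.45 over the tested genes there. VIM changed far more than the sum, from 68.4 RPM in the parental line to 2.87 RPM in the resistant line (log2 fold change -4.17). The fibroblast sum came mostly from COL1A1, at 13.8 and 10.5 RPM in the resistant line and 16.9 and 17.5 RPM in the parental line. FAP lay the opposite way, at 4.58 and 5.32 RPM against 2.63 and 2.76 RPM, and did not pass the test (log2 fold change 0.68, limma adjusted p = 0.0647). COL1A2 had 1 and 6 reads and THY1 1 and 2 reads in the resistant line, against 0 in the parental line. LUM had 0 and 1 reads in the resistant line against 1 and 2 in the parental line, and COL3A1 had 0 and 3 in each. COL1A2, THY1, LUM and COL3A1 had too few reads to be tested. Of the receptors low in triple-negative lines, ESR1 (log2 fold change -0.90) and ERBB2 (0.49) did not pass the test, PGR had at most 3 reads, and their sum was 12.1 to 13.8 RPM against 8.27 to 12.9 RPM. The part of these markers in the values of the 10 genes was not tested.

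**Figure D5:**
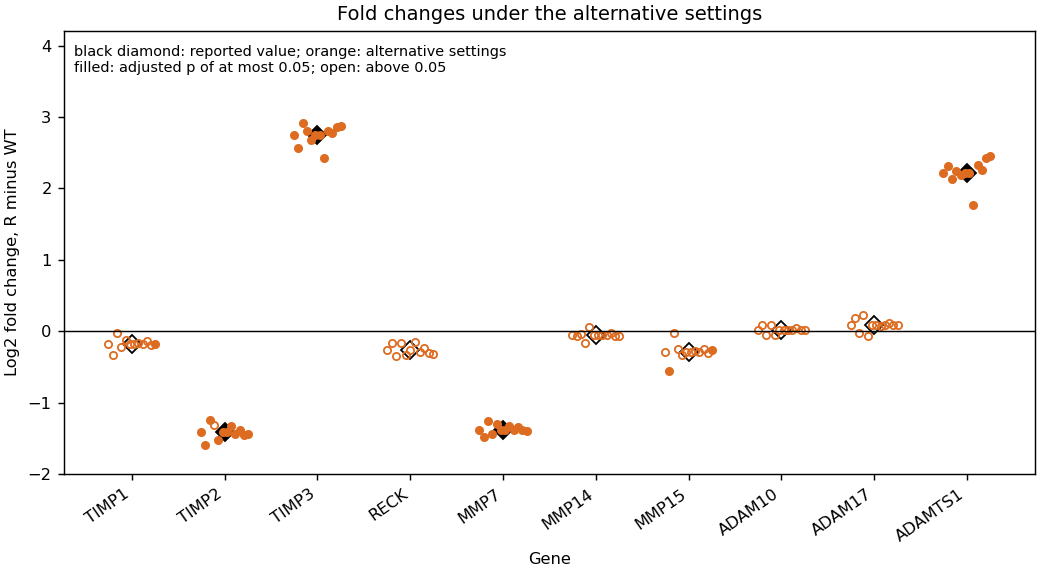
Log2 fold change, MDA-MB-468/R minus MDA-MB-468/WT (vertical axis), of the 10 genes (horizontal axis) as reported (black diamonds) and under each alternative setting other than unadjusted p (orange circles). Filled symbols have an adjusted p of at most 0.05. TIMP3 stayed between 2.43 and 2.91 and ADAMTS1 between 1.76 and 2.45, all filled, whereas TIMP2 has an open circle and TIMP1 and MMP15 have filled circles among open ones.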

How the data were processed

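RNA of 2 resistant and 2 parental MDA-MB-468 libraries was sequenced with the Ion AmpliSeq transcriptome panel, and groups were taken from the labels. Alignment with the Torrent Mapping Alignment Program and testing with DEGSeq are named in the paper's methods, while the submitters' processing notes list Bowtie2, bedtools and edgeR. The genome build is not given in the sources used here. The deposited files hold, per the values and the authors' column names, log2(RPM + 1) to 2 decimals. Read counts were recovered from them, and all values of up to 20 reads came out whole within 0.1. Library totals were 7000607 and 7314514 reads for MDA-MB-468/R replicates 1 and 2, and 6844097 and 7977974 for MDA-MB-468/WT. The limit that 0 reads allows, 3 reads, was 0.376 to 0.438 RPM, and this and the counting intervals cover counting error only. Of the 20809 targets, 28 carry date-like symbols, and 69.0% to 71.2% had reads in a library.

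Genes with at least 10 reads in at least 2 libraries (12118) entered limma 3.58.1 in R 4.3.3, with a mean trend, a two-sided test and Benjamini-Hochberg adjustment over all of them. DEGSeq uses no spread between replicates, and its random sampling model was re-implemented as an alternative. The thresholds were an adjusted p of 0.05 and, for size, 2.5-fold. The script was tested on simulated data. Alternatives were a replicate block, each library left out, other filters, pseudocounts of 0.5 and 4 RPM, median-of-ratios scaling, limma-voom and unadjusted p. The same-numbered libraries' deviations from their group means correlated at 0.00868, so the numbers were not taken to pair the libraries.

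The 10 genes and the lists were chosen with earlier results of these data known. Genes named beside them were, in each list, those that passed both thresholds (at most 6) or else the 2 with the largest change, plus nearest neighbours on the chromosome and the 5 closest profiles. A gene named outside this rule was chosen after its values were seen. These were A2M, ADAMTS3, ADAMTS17, MMP2, FURIN, RHBDF2, SDC1, CD44, CXCL16, EPHA2, LAMA3, COL18A1 and the markers without a large change.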

Additional observations from a re-analysis of the deposited data

How the results depend on the processing

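With 2 libraries a group, the calls rest on few residual degrees of freedom. The 10 genes' fold changes kept their direction and side of the threshold in 120 of 129 comparisons with an alternative setting. Part of this was fixed in advance. Unadjusted p reuses the reported fit and could lose no call, and the filters and replicate block leave each log2 fold change as it was. TIMP3, ADAMTS1 and MMP7 passed the test under every alternative run, with MMP7 between -1.49 and -1.26. TIMP2 lost its call without MDA-MB-468/WT replicate 1. Leaving out each library in turn left 1 (without MDA-MB-468/WT replicate 1) to 3 (without MDA-MB-468/R replicate 1) of the 10 genes lower, and the random sampling model 4, where TIMP1 (log2 fold change -0.18, adjusted p = 0.0228) and MMP15 (adjusted p = 0.0000416) also passed. Leaving out each library moved TIMP1 between -0.34 and -0.02, MMP15 between -0.56 and -0.02, MMP14 between -0.16 and 0.06, ADAM10 between -0.05 and 0.08, ADAM17 between -0.07 and 0.23 and MMP25 between -0.23 and 0.56 on the log2 scale. RECK had no value with the filter of 50 reads. Of the other genes of the protease system, 4 rose as reported. This became 1 with no filter, 2 with a filter of 50 reads, 8 in the random sampling model and 0 to 2 when a library was left out. The 21 that fell became 40 in the random sampling model and 5 to 20 when a library was left out. With a replicate block, 2 of the 10 genes rose and 2 fell, with 3 and 19 of the others, and no call among the 10 changed. IAH1, the neighbour of ADAM17, lost its call with the replicate block (adjusted p = 0.0686), no filter (0.0542), the 50-read filter (0.0501), median-of-ratios scaling (0.0565) and without resistant replicate 1 or either parental replicate, at -0.55 to -0.36. Over all genes tested, 649 rose and 1290 fell (33.5% of calls higher), against 77 and 143 without MDA-MB-468/WT replicate 1, 72 and 131 without MDA-MB-468/WT replicate 2, and 2906 and 3527 (45.2% higher) in the random sampling model. The cause was not tested.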
